A study of Mus musculus with 7 samples.

Results

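The proteasome genes of the mouse lung were compared between Gata5 knockout and wild-type animals. The genes were chosen by name: every probe set whose only gene symbol in the platform annotation starts with Psm, then a letter from a to g and a number. This gave 49 genes with 103 of the 45101 probe sets on the array, out of 18193 genes in all, and each gene was read from whichever of its probe sets was brightest on average. Left lungs were taken from 3 mice with a deletion of Gata5 (KO), a zinc-finger transcription factor, and from 4 wild-type mice (WT), all 8 weeks old, and total RNA of each lung was hybridised to its own Affymetrix GeneChip mouse genome array. The strain, and the cells and stage of the deletion, were not given in the sources used here. Samples of a group are called biological replicates in the labels.

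The proteasome is the protease that degrades ubiquitin-tagged proteins in the cytosol and nucleus. Its barrel, the 20S core, is built from rings of alpha subunits (Psma genes), which gate the entrance, and rings of beta subunits (Psmb genes), some of which carry the proteolytic sites. The 19S regulatory particle caps the barrel: its ATPases (Psmc genes) unfold the substrate and push it in, and its non-ATPase subunits (most Psmd genes) bind ubiquitin chains and remove them. Interferon gamma induces the catalytic subunits Psmb8, Psmb9 and Psmb10, which replace Psmb5, Psmb6 and Psmb7 to form the immunoproteasome, known for making peptides for MHC class I and abundant in leukocytes. Other caps (Psme genes) open the core without ubiquitin, and assembly chaperones (Psmg genes and a few Psmd genes) help to build it. Subunit genes are known to rise together when proteasomes are inhibited, through the transcription factor Nfe2l1 and antioxidant response elements in their promoters.

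Promoters are shown for a gene that is known to answer to such elements and fell in KO lungs (Psmb5), for its immunoproteasome counterpart (Psmb8) and for the gene with the smallest adjusted p-value of the family (Psmc5). Each sequence runs 5′ to 3′ on the gene's strand from 250 bases before to 50 bases after the annotated start, from RefSeq on GRCm38.p6. Capitals mark a match to a motif named below.
Psmb5 (chr14:54617946-54618245, minus strand): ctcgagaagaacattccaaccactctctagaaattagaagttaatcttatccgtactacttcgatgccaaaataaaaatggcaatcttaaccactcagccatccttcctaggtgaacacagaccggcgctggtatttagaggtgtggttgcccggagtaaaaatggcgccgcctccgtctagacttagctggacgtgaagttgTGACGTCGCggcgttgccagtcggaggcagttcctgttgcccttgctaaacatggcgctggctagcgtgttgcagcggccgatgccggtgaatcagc
Psmb8 (chr17:34197945-34198244, plus strand): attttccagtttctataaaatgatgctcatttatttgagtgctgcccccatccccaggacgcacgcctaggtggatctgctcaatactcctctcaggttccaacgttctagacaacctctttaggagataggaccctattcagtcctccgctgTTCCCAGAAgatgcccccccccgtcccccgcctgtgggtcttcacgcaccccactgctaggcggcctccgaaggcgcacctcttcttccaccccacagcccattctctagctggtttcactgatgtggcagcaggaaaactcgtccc
Psmc5 (chr11:106255935-106256234, plus strand): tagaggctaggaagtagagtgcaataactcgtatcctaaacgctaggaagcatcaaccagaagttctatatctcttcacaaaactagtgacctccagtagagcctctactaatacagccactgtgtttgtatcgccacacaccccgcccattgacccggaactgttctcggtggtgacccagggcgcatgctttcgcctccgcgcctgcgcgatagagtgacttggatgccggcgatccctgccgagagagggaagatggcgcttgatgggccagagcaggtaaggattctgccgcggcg
The capitals in Psmb5 are an antioxidant response element core, TGACNNNGC, whose first base lies at -47 from the start. Those in Psmb8 are a gamma-activated sequence, TTCNNNGAA, at -97. That motif reads the same on both strands. Psmc5 held neither of these, nor an interferon-stimulated response element core (GAAANNGAA) or a CCAAT box (CCAAT).

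The table holds log2 levels, so a difference of 0.32 is a 1.24-fold change. A level of 5.47, the 40th percentile of all probe sets, was required for a test, and 13285 genes reached it. A gene was called lower or higher where limma's adjusted p, taken over all those genes, was under 0.05. Gata5 itself averaged under this limit, so it was not among those genes, and its values here come from the fit over all probe sets. Its probe set 1450126_at read 4.98, 4.71 and 5.15 on KO replicates 1 to 3 and 5.32, 5.53, 5.85 and 5.47 on WT replicates 1 to 4, without overlap (log2 change -0.60, limma adjusted p = 0.0336 over all probe sets). The second, 1450125_at, read 4.68 in KO and 4.94 in WT (limma adjusted p = 0.0993). The sources used here do not say which exons were deleted, so these probe sets may lie outside the deletion. Sftpc, Ager and Scgb1a1, markers of type 2, type 1 and airway club cells, read 14.00 to 14.61 on all arrays; Sftpc was slightly lower on every KO array (14.00 to 14.05) than on any WT array (14.10 to 14.20). Array medians lay between 6.10 and 6.15. WT replicate 4 stood apart by Xist, the RNA that coats an inactive X chromosome in females, at 12.72 against 6.31 to 6.48 on the other arrays. The RNA control probe sets separated the groups: beta-actin 3′ exceeded 5′ by 4.96 ± 0.37 (SD) on the 3 KO arrays against 4.10 ± 0.22 on the 4 WT arrays, and Gapdh 3′ exceeded its middle probe set by 4.01 ± 0.26 and 3.47 ± 0.16 (exact permutation p = 0.0286 for both, two-sided, the smallest that 35 splits give). Beta-actin 3′ exceeded its own middle probe set by 3.02 ± 0.28 in KO and 2.42 ± 0.14 in WT, also without overlap (exact permutation p = 0.0286).

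Proteasome genes were more often lower than higher in KO lungs. Of the 47 members that reached the level limit, 10 fell, 1 rose (Psmb3) and 36 did not pass. The lower calls were 21.3% of the members, where 10% of all genes tested were lower and 5.56% higher. Of all called genes 35.7% were higher, a share that was 56.9% after a further quantile normalization, 46.7% after cyclic loess and 25.5% after median centring, with 8, 9 and 12 members lower and 2, 2 and 1 higher. The members' median log2 change was -0.17 and 35 of 47 had a negative change, against a median of -0.003 and 50.8% negative over all genes. The median was -0.11 after quantile normalization, -0.12 after cyclic loess and -0.20 after median centring of the arrays. The KO and WT arrays did not overlap for 23 members, with KO below for 19 and above for 4. Over all genes, 29.6% did not overlap, with KO below for 17.5% and above for 12.1%. No list test was made, and the changes were small: the called folds ran from 1.19 for Psmd1 to 1.71 for Psmd13. These are whole-lung RNA levels, in which fewer cells of a type and less RNA per cell cannot be told apart.

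**Figure D1:**
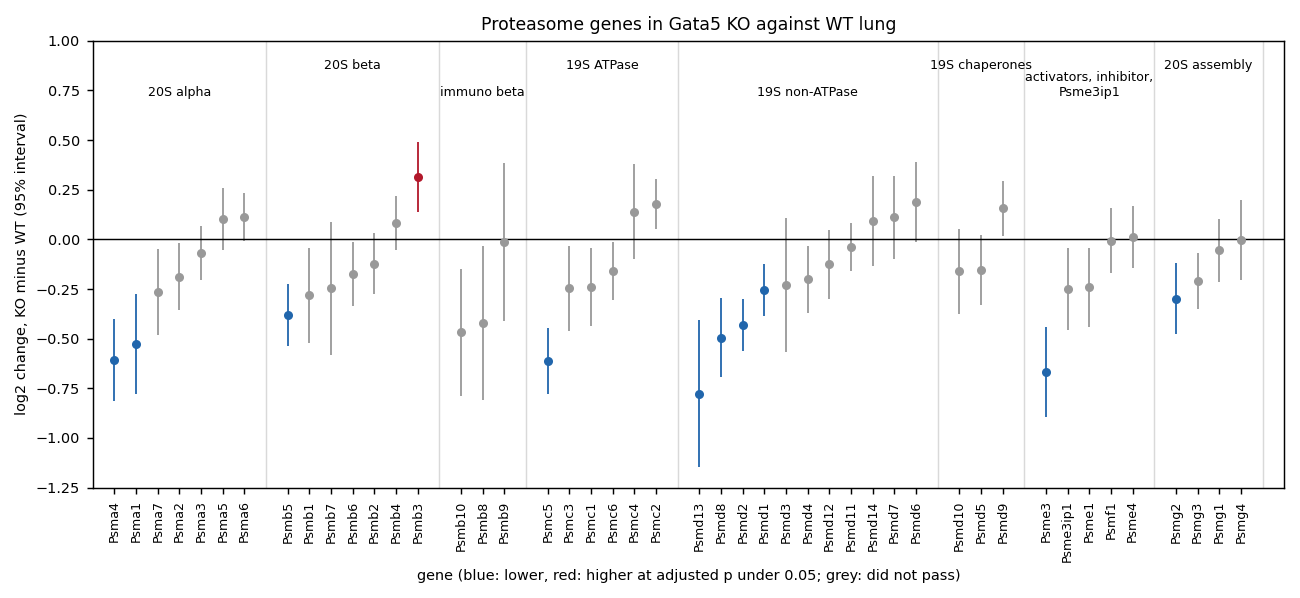
Log2 change between KO and WT lungs (vertical axis, with its 95% interval) for the tested proteasome genes (Psmc3ip left out), grouped by role along the horizontal axis. Blue genes passed as lower, the red gene Psmb3 passed as higher, and grey genes did not pass; most points in each group lie below 0.

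The 14 alpha and constitutive beta subunits of the 20S core had a median log2 change of -0.18, with 3 lower (Psma1, Psma4, Psmb5) and 1 higher (Psmb3). Over all genes tested, 10% were lower and 5.56% higher. Of the 7 alpha subunits, Psma1 and Psma4 fell. Psma4 read 8.30, 8.40 and 8.07 on KO replicates 1 to 3 and 8.93, 8.73, 8.88 and 8.92 on WT replicates 1 to 4. Every KO array lay more than the whole WT range below WT, a 1.52-fold difference (log2 change -0.61 ± 0.09 SE, limma adjusted p = 0.00808). Psma1 read 8.98, 9.03 and 8.64 in KO and 9.34, 9.27, 9.46 and 9.57 in WT, 1.44-fold lower (limma adjusted p = 0.0196). KO replicate 3 was the lowest array for both genes. The call of Psma1 was lost without WT replicate 3 (limma adjusted p = 0.0502) or WT replicate 4 (0.0524). The other 5 alpha subunits did not pass. They ranged from -0.27 for Psma7 (limma adjusted p = 0.0885) to 0.11 for Psma6 (limma adjusted p = 0.169), whose KO arrays at 12.25 to 12.29 lay just above the WT arrays at 12.11 to 12.19.

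Among the 7 constitutive beta subunits, Psmb5, the subunit with the chymotrypsin-like site, fell and Psmb3, a beta subunit without a catalytic site, rose. Psmb5 read 9.23, 9.32 and 9.16 in KO and 9.63, 9.53, 9.59 and 9.72 in WT. The groups were tight and apart, and the level was 1.30-fold lower in KO (log2 change -0.38 ± 0.07 SE, limma adjusted p = 0.0119). Psmb3 read 11.56, 11.73 and 11.75 in KO against 11.41, 11.22, 11.43 and 11.40 in WT, 1.24-fold higher (log2 change 0.32 ± 0.08 SE, limma adjusted p = 0.0311). This rise was lost in 6 of the 7 fits that left out an array, with adjusted p up to 0.0894, and the dimmer Psmb3 probe set moved the other way, as given with the probe sets below. Psmb6 and Psmb7, which carry the caspase-like and trypsin-like sites, did not pass, and neither did Psmb1, Psmb2 and Psmb4, whose changes lay between -0.28 and 0.08.

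The 17 subunits of the 19S regulatory particle included 5 that fell and none that rose, with a median log2 change of -0.20. In limma's fit, 12 of the 17 changes were negative and the KO arrays lay below all WT arrays for 9 genes. Over all genes tested, 10% were called lower, 50.8% had a negative change and 17.5% had KO below WT. Psmc5, an ATPase, had the smallest adjusted p of all members: it read 8.35, 8.23 and 8.24 in KO and 8.89, 8.75, 8.90 and 9.0 in WT. The gap between the groups, 8.35 to 8.75, was wider than the range within either group, and the level was 1.53-fold lower (log2 change -0.61 ± 0.07 SE, limma adjusted p = 0.00566). It was the only called gene among the 6 ATPases, whose median change was -0.20. At the other end, Psmc2 read 12.11, 12.17 and 12.15 in KO and 11.94, 11.97, 12.02 and 11.93 in WT, above WT on every KO array (log2 change 0.18, limma adjusted p = 0.0596). It did not pass here and passed as higher under further quantile normalization, cyclic loess, the 60th percentile level filter and the trended variance model. Psmc2, like Psma6, was read from a probe set ending in _x_at, a kind that can bind other transcripts. All genes tested with such sets had a median log2 change of 0.12, with 15.1% higher.

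The other 4 of the 19S calls were non-ATPase subunits. Psmd2, the scaffold that holds ubiquitin receptors, read 9.54, 9.58 and 9.49 in KO and 9.99, 9.93, 9.92 and 10.03 in WT. The highest KO array and the lowest WT array were well apart, and the level was 1.35-fold lower (log2 change -0.43 ± 0.06 SE, limma adjusted p = 0.00684). Psmd8, a lid subunit, read 7.47, 7.49 and 7.22 against 7.74, 7.92, 7.94 and 7.95, 1.41-fold lower (limma adjusted p = 0.0112). Psmd1, the other large scaffold subunit, read 9.45, 9.42 and 9.54 against 9.68, 9.76, 9.74 and 9.72. Its arrays did not overlap, but the change was only 1.19-fold (limma adjusted p = 0.0245), and 5 of 7 fits without an array lost the call, with adjusted p up to 0.0616. Psmd1 also did not pass after further quantile normalization (log2 change -0.17, limma adjusted p = 0.112) or cyclic loess (-0.19, 0.0822).

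Psmd13, another lid subunit, had the largest fold of the family and the widest KO spread. It read 7.29, 6.48 and 6.99 in KO and 7.77, 7.65, 7.69 and 7.68 in WT, 1.71-fold lower (log2 change -0.78 ± 0.16 SE, limma adjusted p = 0.0186). KO replicate 2 was the lowest by far, and without it the log2 change was -0.56 and still passed. Without WT replicate 1 the adjusted p was 0.0513. The 7 non-ATPase subunits that did not pass included Psmd14, the lid deubiquitinase, at a log2 change of 0.09, Psmd4, a ubiquitin receptor, at -0.20 (limma adjusted p = 0.0940), and Psmd6 at 0.19 (limma adjusted p = 0.166), the highest of the group.

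**Figure D2:**
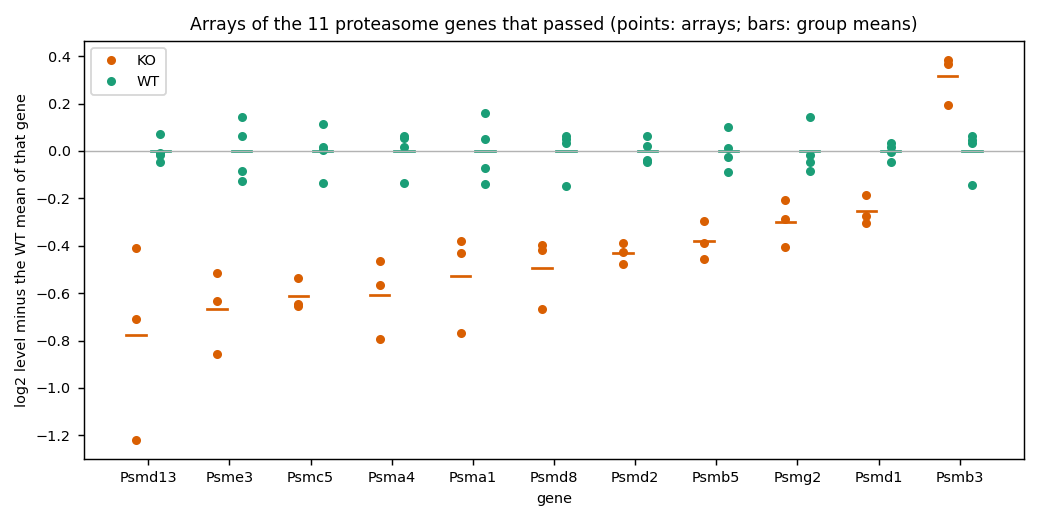
Log2 level of each array minus the WT mean of the same gene (vertical axis) for the 11 proteasome genes that passed (horizontal axis), with points for 3 KO and 4 WT arrays and bars for group means. The groups do not overlap for any of the 11 genes; Psmd13 has the widest KO spread and Psmb3 is the gene above WT.

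Where 15.6% of all genes tested passed, none of the 3 immunoproteasome subunits did. Their median log2 change was -0.42, beside -0.18 for the core and -0.20 for the 19S particle. With each gene's probe sets averaged the 3 medians were -0.10, -0.14 and -0.17, and with the beta-actin 3′ to middle covariate 0.23, 0.022 and -0.054, so the order depends on these choices. The averaging took in another Psmb8 probe set, 1444619_x_at, which lay under the level limit (mean level 5.18, log2 change 0.22). Psmb10 read 7.60, 7.34 and 7.10 in KO and 7.79, 7.68, 7.68 and 8.11 in WT, without overlap and 1.38-fold lower, and just missed the threshold (limma adjusted p = 0.0552). It passed after median centring of the arrays (0.0469) and without KO replicate 1 (0.0370). Psmb8 read 8.29, 8.09 and 7.78 against 8.45, 8.28, 8.28 and 8.89, with KO replicate 1 inside the WT range (log2 change -0.42, limma adjusted p = 0.120). Psmb9 read 7.96, 8.26 and 7.67 against 8.08, 7.77, 7.74 and 8.32, fully overlapping (log2 change -0.01, 95% interval -0.41 to 0.38, limma adjusted p = 0.961). KO replicate 3 was the lowest and WT replicate 4 the highest array for all 3 genes. Without KO replicate 3 the change of Psmb8 was -0.29 and that of Psmb10 -0.35, and without WT replicate 4 they were -0.28 and -0.37, none of which passed (limma adjusted p from 0.109 to 0.323).

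The constitutive subunits they replace read as follows. Psmb6, the counterpart of Psmb9, stood at 10.26, 10.37 and 10.17 in KO and 10.37, 10.41, 10.44 and 10.54 in WT (log2 change -0.17, limma adjusted p = 0.125). Psmb7, the counterpart of Psmb10, stood at 9.46, 9.78 and 9.28 in KO and 9.50, 9.72, 9.75 and 10.04 in WT (log2 change -0.25, limma adjusted p = 0.258). Both overlapped between the groups. The difference between an immuno subunit and its counterpart was taken on each array and compared between KO and WT for the 3 pairs. Psmb8 minus Psmb5 changed by -0.04 (exact permutation p = 0.771, two-sided, also after adjustment over the 3 pairs), Psmb9 minus Psmb6 by 0.16 (exact permutation p = 0.371, adjusted 0.557) and Psmb10 minus Psmb7 by -0.22 (exact permutation p = 0.286, adjusted 0.557). None of these passed, so no shift in the balance of a pair was detected with 3 against 4 arrays, and a shift is not excluded by that.

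**Figure D3:**
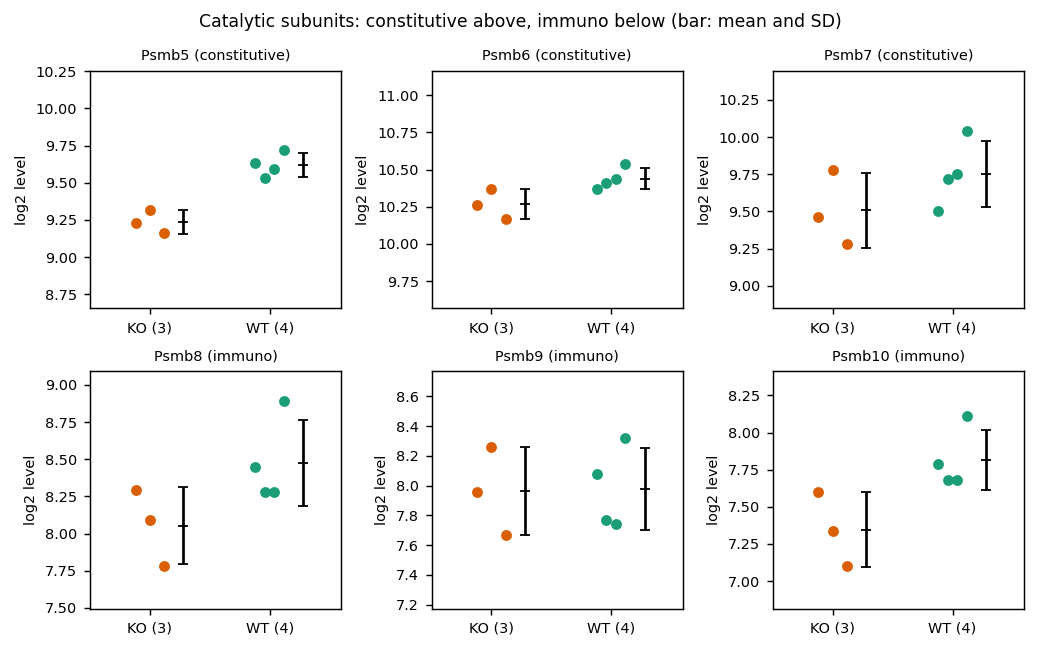
Log2 level on each array (vertical axis, spanning the same number of units in each panel) for the constitutive subunits Psmb5, Psmb6 and Psmb7 and, below each, the immuno subunit that replaces it, with mean and SD (bars) of 3 KO and 4 WT arrays. Psmb5 and Psmb10 have groups that do not overlap. The immuno subunits and the constitutive Psmb7 spread more within groups than Psmb5 and Psmb6.

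Markers of other cell types were read beside the immunoproteasome genes. None of 5 pan-leukocyte, 4 T cell, 3 B cell, 2 NK cell or 2 neutrophil markers tested passed. The share over all genes tested was 15.6%, so few calls would be looked for in lists this short. The SE of these markers' log2 changes ran from 0.087 for Laptm5 to 0.49 for S100a9. A change in their levels is therefore not excluded. The NK marker Ncr1 was under the level limit. The mean log2 level of the 5 pan-leukocyte markers, among them Ptprc, ran from 10.12 to 10.86 on KO arrays and from 10.32 to 10.71 on WT arrays. KO replicate 3, the lowest array for the immuno subunits, was also the lowest KO array for Ptprc (11.13 against 11.80 and 11.96) and Cd52 (9.14 against 10 and 10.26). All 6 macrophage markers had negative changes, of which Lyz2 fell (log2 change -0.43, limma adjusted p = 0.0287), and their mean level was 9.15 to 9.64 on KO and 9.65 to 9.90 on WT arrays. Of 4 endothelial markers, Pecam1 (log2 change -1.22) and Tie1 (-0.83) fell (limma adjusted p = 0.00679 and 0.0113), and the mean of the 4 was 9.18 to 9.60 in KO and 9.86 to 10.12 in WT. The 4 type 2 cell markers on the table had none that passed and 3 negative changes. Their mean level was 12.37 to 12.62 on KO and 12.70 to 12.86 on WT arrays, without overlap. Gene by gene, Sftpb and Sftpc did not overlap between the groups, while Sftpa1 and Abca3 did, the latter with a log2 change of 0.05. Over all genes tested, 29.6% did not overlap. Sftpb, a surfactant protein gene, had the largest of the 4 changes. It read 11.32, 10.15 and 11.08 in KO and 11.54, 11.72, 11.51 and 11.58 in WT (log2 change -0.74, limma adjusted p = 0.0687). The 4 type 1 and 3 airway markers had no call, and their mean levels overlapped between the groups. The part of these cells in the proteasome changes was not tested.

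Psma8 and Psmb11 are core subunits known from restricted tissues. Psma8, the testis alpha subunit, read 4.30 in KO and 4.11 in WT lungs, and Psmb11, the thymus beta subunit, read 5.04 and 4.98, both under the level limit. Of the other thymus genes listed, Rag1 was likewise under it, at 3.65 and 3.59, while Dntt (6.06 and 5.89) and Aire (5.64 and 5.43) were above it and did not pass (limma adjusted p = 0.186 and 0.194). Psme2, the partner of Psme1 in the interferon-induced cap, shares its probe set with Psme2b in the annotation, so it was not among the members and no value is given.

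Among the caps and the inhibitor, Psme3, which forms the nuclear cap PA28 gamma, fell. It read 7.53, 7.19 and 7.41 in KO and 7.92, 8.19, 8.11 and 7.96 in WT, 1.59-fold lower (log2 change -0.67 ± 0.10 SE, limma adjusted p = 0.00807). The lowest WT array, at 7.92, lay above the highest KO array, at 7.53. Psme1, a subunit of the interferon-induced cap, read 10.53, 10.55 and 10.43 against 10.64, 10.72, 10.66 and 10.96, below WT on every KO array but not passing (log2 change -0.24, limma adjusted p = 0.0925). Psme4, the cap PA200, read 10.38, 10.55 and 10.53 against 10.43, 10.57, 10.46 and 10.44, with full overlap (log2 change 0.01, 95% interval -0.14 to 0.17, limma adjusted p = 0.915). The inhibitor Psmf1 differed by -0.01 (95% interval -0.17 to 0.16), and Psme3ip1, which binds PA28 gamma, by -0.25 (limma adjusted p = 0.0934).

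Of the 4 chaperones of the 20S core, Psmg2 fell, and of the 3 chaperones of the 19S base, none passed. Psmg2 read 7.86, 8.06 and 7.98 in KO and 8.25, 8.22, 8.18 and 8.41 in WT, 1.23-fold lower without overlap (limma adjusted p = 0.0372). Its call was lost in 6 of the 7 fits that left out an array, with adjusted p up to 0.0969, and after further quantile normalization. Psmg1, its partner in the chaperone pair that guides the alpha ring, differed by -0.06 (limma adjusted p = 0.588), Psmg3 by -0.21 (0.0517) and Psmg4 by -0.004 (0.977). The 19S chaperones Psmd5, Psmd9 and Psmd10 differed by -0.15, 0.16 and -0.16 (limma adjusted p = 0.190, 0.111 and 0.249). Psmc3ip shares the symbol pattern but acts in meiotic recombination, and differed by 0.28 (limma adjusted p = 0.176).

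Of the 11 calls, 6 held whichever array was left out: Psma4, Psmb5, Psmc5, Psmd2, Psmd8 and Psme3. With each gene's probe sets averaged, Psma1 (log2 change -0.07, limma adjusted p = 0.460), Psmd2 (-0.17, 0.0577), Psmd13 (-0.23, 0.121) and Psmb3 (-0.13, 0.198) did not pass, and Psma7, Psmd4 and Psmd7 passed as lower and Psmd9 as higher. These averages took in the only other probe set of Psmd2 (mean level 4.25) and Psma1 sets at 5.12 and 4.12, all under the level limit. The probe sets of Psmd13 and Psmb3 all lay above it. Without WT replicate 4, the array that stands apart by Xist, 7 members passed, all lower, with 891 genes called in all, and the members' median was -0.15. The control RNA differences moved with genotype on every array, and were entered into the fit to read the members beside them. With the beta-actin 3′ to 5′ or the Gapdh 3′ to middle difference as a covariate, the members' median log2 change was -0.25 and -0.28, with 36 of 47 negative under each. When the beta-actin 3′ to middle difference was used instead, it was -0.03, with 25 of 47 negative. No member passed in any of these fits, in which 0, 5 and 0 of all 13285 genes passed for beta-actin 3′ to 5′, Gapdh and beta-actin 3′ to middle. At an unadjusted p under 0.05 there were 7, 15 and 6 members, and 2204, 2726 and 1742 genes in all. Beyond these values, the part of RNA quality in the members' changes was not tested.

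**Figure D4:**
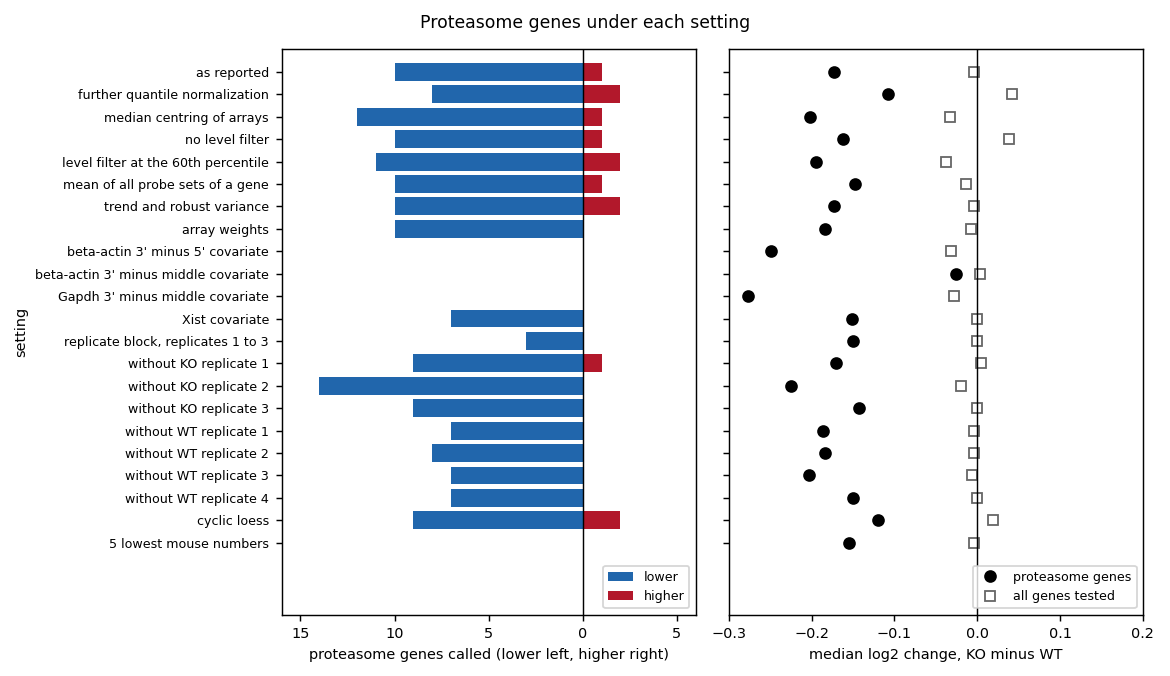
Left, number of proteasome genes that passed as lower (blue, leftward) or higher (red, rightward) under each setting of the analysis. The setting labelled 5 lowest mouse numbers holds the 5 arrays of lowest number in the sample titles. Right, median log2 change of the proteasome genes (filled circles) and of all genes tested (open squares); the proteasome median lies below 0 in each setting shown and comes nearest to it, at -0.03, with the beta-actin 3′ to middle covariate.

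Where several probe sets measure a member, they often differed in sign. Of 27 members with more than 1 probe set, 23 had more than 1 above the level limit. Of these 23, 18 had changes of both signs, counted whatever their size. Over the 86 member probe sets above the limit, with p-values adjusted over all 45037 probe sets, 19 were lower and 3 higher. Among all probe sets above the limit, 10.1% were lower and 4.63% higher. For 17 members at least 1 probe set was lower, for 3 at least 1 was higher, and Psmb3 was in both counts. Such counts per gene grow with its number of probe sets. Neither they nor the count of both signs was taken over all genes. The brightest probe set had a higher change than the next brightest in 13 of the 23 genes.

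Psmb3 showed the disagreement most plainly. Its bright probe set 1460198_a_at was the one called higher, while 1417052_at read 7.86, 7.63 and 8.00 in KO and 8.26, 8.43, 8.39 and 8.53 in WT, lower without overlap (log2 change -0.57, limma adjusted p = 0.0125 over all probe sets). The direction of Psmb3 therefore depends on the probe set read. Psmd7, a lid subunit, differed by 0.11 at 1432820_at and by -0.87 at 1451056_at, which read 5.88, 5.45 and 5.82 in KO against 6.73, 6.54, 6.39 and 6.69 in WT (limma adjusted p = 0.00722). Psmd11, also of the lid, differed by -0.04 at its brightest probe set (0.043 after quantile normalization and 0.027 after cyclic loess) and by -0.74 at 1429370_a_at (limma adjusted p = 0.00722), which stood at 6.74 to 6.86 in KO and 7.39 to 7.81 in WT. Psmb4 (0.08 against -0.38 at 1451205_at, limma adjusted p = 0.0250), Psma7 (-0.27 against -0.57 at 1423568_at, limma adjusted p = 0.0186) and Psmd4 (-0.20 against -0.66 at 1425859_a_at, limma adjusted p = 0.0103) likewise had a dimmer probe set that was lower. In the other direction, Psmb1 differed by -0.28 at its brightest probe set and rose at 1420053_at (0.37, limma adjusted p = 0.0150), and Psmd9 rose at 1447670_at (0.67, limma adjusted p = 0.0174).

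Among the lower calls, Psma4, Psmb5, Psmc5, Psmd1, Psmd2 and Psmd8 had no second probe set above the level limit. Psmg2 was lower at both of its probe sets above that limit. At 1425373_a_at its log2 change was -0.42 (limma adjusted p = 0.0372 over all probe sets). The second probe sets of Psma1 and Psme3 did not pass, with log2 changes of -0.01 (limma adjusted p = 0.918) and -0.14 (0.205). For Psmd13 the next brightest, 1437220_x_at, differed by -0.33 (limma adjusted p = 0.127), and the other 2 by 0.06 and 0.13. The cap gene Psme4, level at its brightest probe set, was lower at 1426824_at (-0.40, limma adjusted p = 0.0191) and 1446464_at (-0.30, 0.0387). Psmc2, above WT at its brightest probe set, differed by -0.23 at the other one above the level limit (limma adjusted p = 0.168). These probe sets and those of the genes above were picked after their values were seen.

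**Figure D5:**
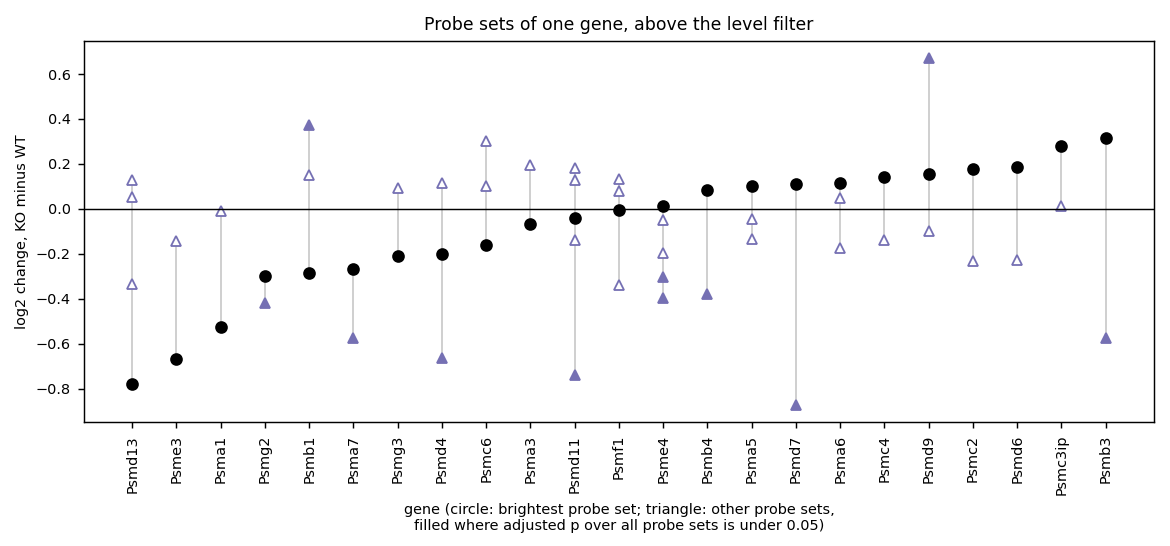
Log2 change between KO and WT lungs (vertical axis) of every probe set above the level limit for the 23 proteasome genes with more than 1 (horizontal axis). Circles are the brightest probe set of a gene and triangles the others, filled where the adjusted p over all probe sets is under 0.05; for 18 genes the symbols lie on both sides of 0.

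Changes were also read by kind of probe set. The 26 members read from probe sets that end in a plain _at, designed to be unique to a transcript, had a median of -0.24 with 8 lower, where all genes on such sets had a median of -0.01 with 10.2% lower. The 15 on _a_at sets had a median of -0.16 with 2 lower and 1 higher, where all such genes had -0.03 with 12.7% lower. The 3 on _s_at sets had a median of 0.01 and no call. The 3 read from _x_at sets (Psma6, Psmb4 and Psmc2), which can bind other transcripts, had a median of 0.11 and no call. All 701 genes tested with such sets had a median of 0.12, with 15.1% higher and 2.57% lower. The 24 members at or below their median level of 9.24 had a median change of -0.22 with 7 lower, and the 23 above it -0.16 with 3 lower and 1 higher. All tested genes in the same level ranges had medians of 0.02 and -0.06, with 8.57% and 13.4% lower.

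Motifs were counted on both strands in the promoter windows described above, in which 41 of the 49 members had 44 promoters. The antioxidant response element core was in 6 of 44 member promoters (13.6%), where 12.4% of all 32851 RefSeq promoters held it. The interferon-stimulated response element core was in 7 (15.9%, against 8.56% of all), the gamma-activated sequence in 3 (6.82% against 8.3%) and the CCAAT box in 16 (36.4% against 37.4%). Of the 9 lower members with a promoter, Psmb5 held the antioxidant element core, Psmd2 the gamma-activated sequence, and Psma1 and Psme3 a CCAAT box. Psmb3 held the interferon-stimulated element core and a CCAAT box. A match is a description of the letters, and no match says only that they are not in this window.

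Other genes of the ubiquitin-proteasome and peptide pathway were read from a list of 57, of which 47 had a probe set of their own and 45 were tested. Of these, 13 fell and none rose (28.9% lower, median -0.15), and KO arrays lay below all WT arrays for 19 and above for none. Over all genes tested, 10% were lower and 5.56% higher, with KO arrays below for 17.5% and above for 12.1%. The list was chosen with earlier results of these data known. Of 3 tested subunits and assembly factors with other names, Pomp, the chaperone of core assembly, fell (log2 change -0.31, limma adjusted p = 0.0251, lost in 5 of 7 fits without an array, with adjusted p up to 0.0713), and Sem1, a small 19S subunit, did not pass (-0.14, 0.116). The nuclear import factor of proteasomes, Akirin2, fell 1.24-fold (limma adjusted p = 0.0100). Of 4 shuttles that carry ubiquitinated proteins to the proteasome, Ubqln1 (-0.51, limma adjusted p = 0.00526) and Ubqln4 (-0.34, 0.0266) fell, and the call of Ubqln4 was lost in 5 of 7 fits without an array, with adjusted p up to 0.0708. The ubiquitin-activating enzyme Uba6, the only tested gene of the ubiquitin list, did not pass (-0.18, limma adjusted p = 0.109).

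The unfoldase that extracts ubiquitinated proteins from membranes and complexes fell. Vcp read 10.04, 9.80 and 9.66 in KO and 10.74, 10.65, 10.61 and 10.69 in WT, 1.79-fold lower (log2 change -0.84 ± 0.09 SE, limma adjusted p = 0.00526). The highest KO array, at 10.04, lay below the lowest WT array, at 10.61. Its adaptors Ubxn1 (-0.73, limma adjusted p = 0.00694) and Nsfl1c (-0.50, 0.00950) also fell, and 3 of the 6 genes of this list did not pass.

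Of 6 transcription genes, Nfe2l1, which drives the subunit genes when proteasomes are inhibited, its relative Nfe2l2 and their partner Mafg fell. Nfe2l1 read 7.86, 7.17 and 7.60 in KO and 8.33, 8.36, 8.08 and 8.15 in WT, 1.61-fold lower (limma adjusted p = 0.0231), with KO replicate 2 the lowest array. Without KO replicate 3, WT replicate 1 or WT replicate 4 its adjusted p rose to as much as 0.0596. Nfe2l2 (-0.42, limma adjusted p = 0.0451) kept its call in 1 of 7 such fits, and Mafg (-0.50, 0.0100) kept it in all 7.

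Of 11 genes of the MHC class I peptide pathway, 3 fell: Pdia3 and Calr, which help to load peptides in the endoplasmic reticulum, and the class I heavy chain H2-D1. Pdia3 read 7.13, 6.84 and 7.28 in KO and 7.81, 8.20, 7.82 and 8.13 in WT, 1.87-fold lower (limma adjusted p = 0.00802). Calr differed by -0.48 (limma adjusted p = 0.0107) and H2-D1 by -0.46 (0.0282), the latter lost in 4 of 7 fits without an array. The peptide transporter genes Tap1 and Tap2, named after their values were seen, differed by 0.21 and -0.40 and did not pass (limma adjusted p = 0.313 and 0.0641). Where 15.6% of all genes tested passed, none of 8 tested interferon gamma signalling genes did, with a median of -0.09. Among them Irf1 differed by -0.24 (limma adjusted p = 0.0663) and Gbp2 by 0.17 (0.194), and Ifng itself was under the level limit.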

How the data were processed

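Values for 45101 probe sets on 7 arrays were deposited as log2 levels, to 2 decimals. Per the submitters' processing notes, Affymetrix Expression Console, RMA and MAS5 were used by the authors, without roles or versions, so which made the table is unstated; the log base was read from the range of the values. Values were used as deposited. Gene names came from GEO's platform annotation, updated for 34741 probe sets from RefSeq (GRCm38.p6), and no gene was named from the 932 probe sets with several genes.

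Genotype alone was fitted in limma 3.58.1 (lmFit, then eBayes; R 4.3.3) over 13285 genes at or above the 40th percentile of probe set means, with Benjamini-Hochberg adjustment. Probe sets were also fitted over all 45037 that are not controls. Single values per array were compared with exact two-sided permutation tests over 35 splits. Arrays have no counting depth, and their number limits the precision. The p-values of limma set the difference between the genotypes against the spread within the groups of these 7 samples. Exact p-values give the share of the 35 splits with a difference at least as large.

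The proteasome genes, the lists and the tests were chosen with earlier results of these data known. Members named with every array are those that passed, the catalytic pairs, Psme1, Psme4 and the extremes of each group (for some of these only the range is printed); partner genes are those that passed and up to 2 others per list, as far as the text needs them. Marker and partner lists are not independent of those earlier results. Alternatives covered normalization, level filter, probe set choice, variance model, array weights, control and Xist covariates, the replicate number as a block and leaving out each array. A planned comparison of subunit proteins was not run. Plots used matplotlib 3.10.9 and Python 3.11.15.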

Additional observations from a re-analysis of the deposited data

Results flagged for a closer look

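Each of the 47 named genes was checked for an array far from the others within the 4 WT arrays, with Dixon's test at its 95% critical value. Chance alone marks about 1 in 20 such groups. Psmb3 was marked by WT replicate 2 at 11.22, against 11.40 to 11.43 on the other WT arrays. Psmd8 was marked by WT replicate 1 at 7.74, against 7.92 to 7.95. Psmd11 was marked by WT replicate 1 at 11.45, with the other WT arrays all at 11.38. Ubqln1 was marked by WT replicate 2 at 10.87, against 10.94 to 10.95.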

How the results depend on the processing

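Across 21 alternatives, the 47 named genes had 984 values, of which 753 kept direction and side of the threshold, 181 kept direction and no longer passed, 13 newly passed and 37 changed sign. Counts are given as all genes, proteasome genes and partner genes, against 2069, 11 and 13 as reported. With only the 5 arrays of lowest number in the sample titles, KO replicates 1 to 3 and WT replicates 1 and 2, they were 0, 0 and 0. This alternative has fewer WT arrays and was chosen after seeing the data. It had 2791 genes and 13 members at unadjusted p under 0.05. The counts were 0, 0 and 0 with the beta-actin 3′ to 5′ or 3′ to middle covariate, 5, 0 and 0 with the Gapdh covariate, and 935, 7 and 8 with Xist as a covariate. With the replicate block they were 371, 3 (Psmc5, Psmd13 and Psme3, all lower) and 4. Same-numbered KO and WT arrays had correlations of 0.003, -0.04 and 0.04, so the numbers were not taken as pairs; no KO array correlated best with the WT array of its number. Leaving out arrays gave 891 to 1951 genes, 7 to 14 members (all lower, except that Psmb3 was also called in 1 fit) and 8 to 14 partners; fewest members passed without WT replicate 1, 3 or 4, at 7 each. Members lower were 10 as reported and 0 under each control covariate.

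The median log2 change of the core, -0.18 as reported, was -0.28 (beta-actin 3′ to 5′), -0.34 (Gapdh) and 0.022 (beta-actin 3′ to middle). That of the 19S particle, -0.20, was -0.13 (quantile), -0.14 (cyclic loess), -0.054 (beta-actin 3′ to middle) and -0.23 to -0.15 without an array. That of the immuno subunits, -0.42, was -0.10 with the mean of probe sets, 0.23 with beta-actin 3′ to middle and -0.54 to -0.28 without an array. Under the beta-actin 3′ to middle covariate the sign turned for Psmb6 (0.039), Psmb7 (0.31), Psmb8 (0.23), Psmb9 (0.54), Psmb10 (0.076), Psme1 (0.019), Psma7 (0.11), Psmd6 (-0.054) and Psme4 (-0.075). With the mean of all probe sets it turned for Psmb3 (-0.13), Psma6 (-0.028), Psmd6 (-0.020), Psmb4 (-0.15), Psmd7 (-0.22), Psme4 (-0.17), Nfe2l2 (0.028) and Gbp2 (-0.0083). Psmd7 was -0.15 and -0.20 with beta-actin 3′ to 5′ and Gapdh, and Psmd11 was 0.043 after quantile normalization and 0.027 after cyclic loess. Psmb9, near 0 as reported, was 0.050 (quantile), 0.092 (Xist), 0.10 (replicate block), 0.021 (cyclic loess), 0.038 (5 lowest title numbers) and -0.16 to 0.13 without an array. Psme4, also near 0, was -0.0175 (median centring), -0.0061 (array weights), -0.019 (beta-actin 3′ to 5′), -0.042 (Gapdh), -0.013 (5 lowest title numbers) and -0.020 to 0.065 without an array. The cause of these shifts was not tested.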
